A study of Mus musculus with 8 samples.

Results

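Kidney cells of entospletinib-treated mice on day 7 after ischemia-reperfusion injury (IRI) were set against kidney cells of uninjured control mice, gene by gene and cell class by cell class. Cells were chosen by their condition in the deposited cell table (E_IRI_D7 or CTRL) and by 3 limits, namely more than 300 detected genes, fewer than 20000 counts and less than 25% of counts from mitochondrial genes. The limits left 18810 cells, 7605 from the treated injured kidneys and 11205 from the control, of 90855 cells that passed the same limits in all 7 conditions and of 120281 barcodes. The vehicle-treated day 7 pool (IRI_D7, 6110 cells) stands beside them throughout as the measure of injury without the inhibitor.

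All groups were C57BL/6 mice, and the study's methods give male mice for the single-cell libraries. In the injured groups the vessels of the left kidney were clamped and released without removal of the right kidney, and the mice were injected intraperitoneally with entospletinib or with the vehicle, DMSO, before clamping and daily afterwards. Control mice were left untreated per the labels, and their kidneys were untouched. Each condition was 1 pool of kidney cells from 3 mice, sorted by flow cytometry for live cells of leukocyte scatter, so tubular and endothelial cells are those that came through a gate meant for leukocytes. No condition had a replicate pool. The cells were divided after barcoding into 8 sublibraries, portions of the same cells, and each standard deviation (SD) below is over these 8 and measures technical error. No test between mice could be made and no p-value is given.

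SYK is a cytoplasmic tyrosine kinase of blood cells that carries signals from Fc receptors, integrins and C-type lectin receptors such as Mincle, and entospletinib blocks its active site. After ischemia the kidney fills with neutrophils and monocytes, resident macrophages lose part of their resting gene program, and proximal tubule cells, the segment most sensitive to loss of oxygen, die or dedifferentiate. Where repair succeeds, the infiltrate clears and tubule cells regain their transporters and metabolic enzymes.

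The treated pool held 24853279 counts in kept cells, the control 40077221 and the vehicle pool 21269083, with medians of 2742, 2928 and 2526.5 counts per cell. The treated pool stood apart in the depth of its shallowest barcodes. Its lowest barcode held 1094 counts, against 332 in the control and 209 in the vehicle pool, and 12.1% of its kept cells had at least 1.5% of counts from ribosomal protein genes, against 5.41% and 4.98%. Treated and control cells shared 0 first-round wells, so pool, wells and treatment cannot be told apart. Of 17379 well combinations in both conditions, 1362 (7.84%) occurred in more than 1 sublibrary. Among the 10 genes leading each of 17 marker gates over all other cells, 2 to 5 were that gate's own markers and none was a marker of another gate. Cells enter a gate by these markers, so this count is no measure of its purity. Cells that also held at least 2 markers of a class of another lineage made up 12.7%, 7.87% and 5.75% of macrophages in control, treated and vehicle pools. For endothelial cells the shares were 29.5%, 23.8% and 21.4%, and for proximal tubule cells 22.5%, 17.3% and 18.7%.

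Across all genes the treated injured kidney lay close to the uninjured one. A gene's counts were summed over all kept cells of a condition and divided by the total counts of that condition on a common scale (CPM), and 3539 genes averaged at least 50 CPM over the treated, vehicle and control pools. Of these genes, 36 (1.02%) differed at least 2-fold between entospletinib day 7 and the control, 20 (0.565%) higher and 16 (0.452%) lower. In the vehicle pool 539 (15.2%) did so against the same control, 175 (4.94%) higher and 364 (10.3%) lower. The median size of the log2 ratio was 0.13 with entospletinib and 0.39 with vehicle, and 95.6% against 69.4% of genes lay within 1.5-fold of the control. Both comparisons share the control pool. With counts drawn down to the same total in all 3 pools the genes past 2-fold numbered 33 and 539. The number and the split of genes past 2-fold moved with scaling, since trimmed-mean (TMM) scaling gave 13 higher and 21 lower.

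**Figure D1:**
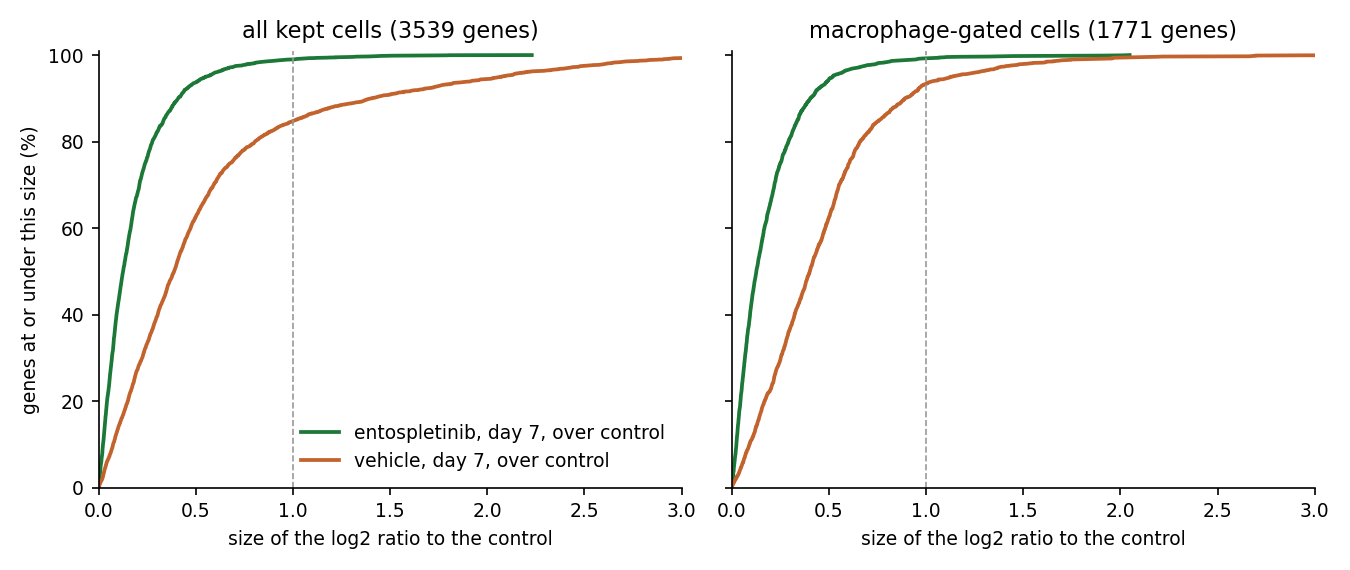
Share of genes (%, vertical axis) whose log2 ratio to the control is at or under the size on the horizontal axis, for entospletinib day 7 and vehicle day 7, over all kept cells (3539 genes) and in the macrophage gate (1771 genes). In both panels the entospletinib line stands to the left, with a median size of 0.13 in each, against 0.39 and 0.40 for vehicle.

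The other injured pools were measured over the same 3539 genes and the same control. On day 1 entospletinib left 452 genes (12.8%) past 2-fold and on day 14 153 (4.32%), so day 7 was the closest of the treated pools. Vehicle gave 777 (22.0%) on day 1 and 438 (12.4%) on day 14. At an equal depth of 15204925 counts per pool the entospletinib numbers were 455 on day 1, 34 on day 7 and 152 on day 14. All 6 comparisons share 1 control pool, and whether the order of days would hold in other mice cannot be told from 1 pool each.

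Of the 10 named genes furthest above the control over all cells, 8 were higher still in the vehicle pool. *Fn1* (ENSMUSG00000026193, chr1:71585520-71653200), which encodes fibronectin and is made by inflammatory monocytes, ran from 20.2 to 28.0 CPM over the control sublibraries with a median of 23.4. It ran from 77.1 to 152.3 with a median of 103.6 in the treated pool, and from 559.0 to 1001 with a median of 859.4 in the vehicle pool. The 3 ranges did not overlap, and the log2 ratio to the control was 2.23 (SD 0.38) with entospletinib and 5.12 with vehicle. Because cells were summed, fewer cells of a type and less RNA per cell cannot be told apart in these ratios.

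*Socs3*, an inhibitor of cytokine signaling that cytokines themselves induce, ranged from 9.91 to 18.1 CPM in the control (median 12.3), from 30.5 to 40.9 with entospletinib (median 36.3) and from 83.7 to 116.6 with vehicle (median 111.0). Its log2 ratio was 1.45 (SD 0.31) with entospletinib and 2.99 with vehicle. *Il1rn*, which encodes the natural antagonist of the interleukin 1 receptor, stood at 5.29, 13.2 and 169 CPM in control, treated and vehicle pools. Mincle itself, *Clec4e*, a SYK-coupled receptor for products of dead cells, was at 14.3, 35.4 and 272.0 CPM, with log2 ratios of 1.31 (SD 0.27) and 4.25. The monocyte factor XIII subunit *F13a1* (25.9, 69.4 and 162 CPM) had the same order. For each of these genes the sublibraries of treated and control pools did not overlap. *Gda*, which encodes guanine deaminase, went from 53.1 to 137 CPM (log2 ratio 1.37, SD 0.11) and reached 279 with vehicle.

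Promoter sequence is shown for the 2 named cytokine-response genes whose first 250 bases before a RefSeq start hold a motif of a factor that acts in that response, taken from the RefSeq promoter table (GRCm38.p6). For *Socs3* that start differs from the gene's outer bound in the GRCm38 annotation (chr11:117966079-117970047, minus strand), and the stretch shown lies within that span. Capitals mark the motif, TTCNNNGAA for STAT factors and TGANTCA for AP-1, searched on both strands.
Socs3, chr11:117969492-117969540, minus strand: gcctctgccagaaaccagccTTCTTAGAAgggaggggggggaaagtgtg
Il1rn, chr2:24336699-24336745, plus strand: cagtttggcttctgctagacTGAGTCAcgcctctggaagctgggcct

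The STAT motif was in the promoters of 2197 of 27025 genes (8.13%) and the AP-1 motif in those of 2113 (7.82%). Of the 20 genes named over all cells 14 had a promoter in the table, and 2 of these (*Socs3* and *Keg1*) held the STAT motif and 1 (*Il1rn*) the AP-1 motif. A match describes the letters in this window and is no evidence of binding.

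Several of the genes furthest below the control are known as genes of the proximal tubule. *Gpx3* (chr11:54902453-54910377), the plasma glutathione peroxidase that the kidney secretes, ran from 679.4 to 944.3 CPM in the control (median 785.9), from 221.8 to 366.5 with entospletinib (median 282.8) and from 124.1 to 201.2 with vehicle (median 161.7). No treated sublibrary reached the control, and the log2 ratio was -1.48 (SD 0.31). The endocytic receptor megalin, *Lrp2*, stood at 312 CPM in the control, 137 with entospletinib and 55.5 with vehicle (log2 ratio -1.19, SD 0.38). The gluconeogenic enzyme gene *Pck1* (103, 37.8 and 18.1 CPM), the urea cycle and arginine synthesis gene *Ass1* (194, 79.4 and 46.7 CPM) and the androgen-regulated *Kap* (153, 46.8 and 20.3 CPM) had the same order, as did *Keg1* (148, 48.2 and 22.2 CPM) and the potassium channel gene *Kcnj15* (112, 47.0 and 20.6 CPM). *Ndrg1* (371, 159 and 111 CPM) and the adhesion receptor gene *Adgrl3* (233, 99.9 and 77.9 CPM) were also among the 10 lowest. In each of these genes the treated value lay between control and vehicle.

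Of the 20 named genes, 3 did not lie between the control and the vehicle pool. *Tmem117* was at 38.6 CPM in the control, 104 with entospletinib and 15.5 with vehicle. It was among the 10 leading genes of the distal tubule or collecting duct gate, whose share of cells was also highest in the treated pool. Within that gate it was at 760.5, 1332 and 779 CPM (log2 ratio 0.81, SD 0.73, higher in 7 of 8 sublibraries). The small nuclear RNA *Rn7sk*, a part of the 7SK complex that holds back transcription elongation, was at 234.8, 820.3 and 333.7 CPM, and *Scarna2*, a guide RNA of Cajal bodies, at 208, 60.2 and 258 CPM. Neither RNA followed a cell class, as described for the gates further on.

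Gene lists were read as counts of members past 2-fold and as medians beside the median of all 3539 genes, which was 0.06 with entospletinib and -0.26 with vehicle. A gene could pass the level limit through 1 pool in which it is high, so these counts and medians are descriptions and support no difference between treated and vehicle pools. Of the 22 genes of SYK-coupled receptors and signaling 18 were measured, and 2, *Clec4e* and *Clec4d*, were past 2-fold higher with entospletinib, where 0.565% of all genes were, with a list median of 0.24. Both passed the level limit through the vehicle pool, at 272.0 and 239 CPM there. *Syk* itself stood at 341, 409 and 549 CPM. The chemokines and colony-stimulating factors had 7 measured members, 1 of them (*Cxcl2*, a neutrophil attractant) past 2-fold higher with entospletinib (0.565% of all genes), and a median of 0.66. Of the 7, 5 were under 50 CPM in the control, *Cxcl2* among them, so no count is set against vehicle.

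*Cxcl2* ran from 20.9 to 33.8 CPM in the control (median 26.3), from 38.3 to 76.9 with entospletinib (median 58.1) and from 626.6 to 831.5 with vehicle (median 684.6). The treated sublibraries lay wholly above the control. Of 8 inflammatory cytokine and inflammasome genes, 3 of them (*Casp4*, *Ptgs2* and *Tlr4*) under 50 CPM in the control, none was past 2-fold with entospletinib (1.02% of all genes, so that none of 8 is near the background), with a median of 0.48. *Il1b*, which encodes interleukin 1 beta, stood at 445, 660.5 and 2125 CPM, and its treated and control sublibraries did not overlap (log2 ratio 0.57, SD 0.12).

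Proximal tubule transport and metabolism had the lowest list median with entospletinib, -0.93 over 13 measured genes with 6 past 2-fold lower, where 0.452% of all genes were. With vehicle 12 of the 13 were lower, where 10.3% of all genes were, and the median was -2.33. Some members of the list did not share this: *Ppargc1a*, a regulator of mitochondrial biogenesis (65.6, 86.3 and 19.2 CPM), *Egf*, made in the thick ascending limb and distal tubule (257, 333 and 45.9 CPM), and *Kl*, which encodes Klotho (89.5, 87.4 and 20.3 CPM), were within 1.5-fold of the control with entospletinib. The 5 extracellular matrix genes had medians of -0.19 and -2.34 and the 6 endothelial genes of -0.26 and -2.88, with 0 and 1 past 2-fold lower under entospletinib and 4 and 5 under vehicle. The endothelial exception was *Igfbp3* (111, 49.9 and 14.4 CPM, log2 ratio -1.16, SD 0.21). Within the endothelial gate the medians were -0.14 and -0.14 over 5 matrix genes and -0.10 and -0.40 over 6 endothelial genes. Within the proximal tubule gate the transport and metabolism list had medians of 0.00 and -0.32 over 20 genes. The part of the class shares in the all-cell medians was not tested. Resident macrophage genes had medians of -0.36 and -1.04, with 0 and 7 of 11 past 2-fold lower. MHC class II genes, at medians of 0.16 and -0.16, had none of 6 past 2-fold in either pool (1.02% and 15.2% of all genes), and nothing is read from counts of 0 in lists this short.

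**Figure D2:**
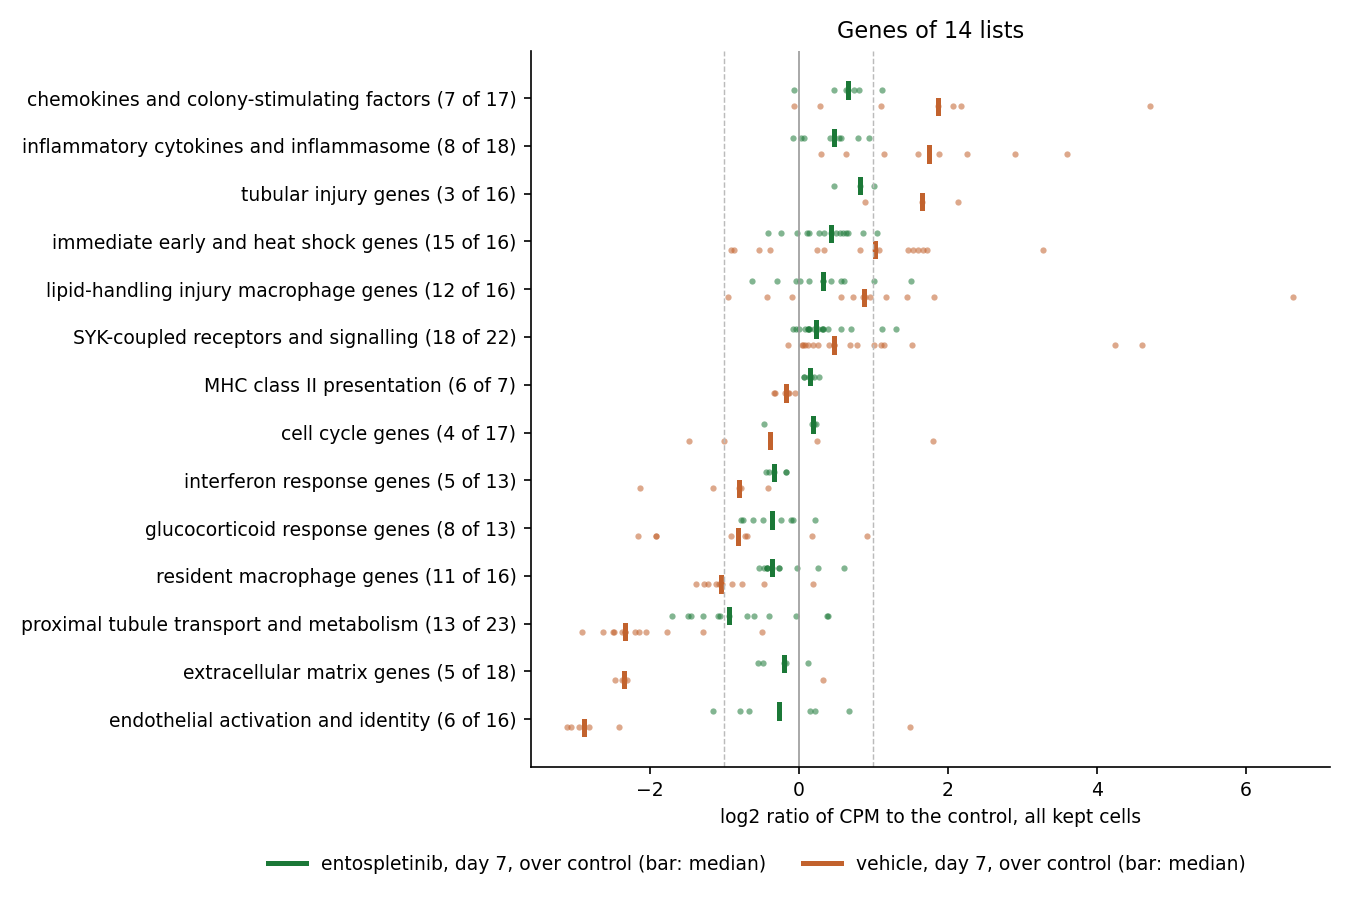
Log2 ratio of CPM to the control over all kept cells for each measured gene of 14 lists, entospletinib day 7 and vehicle day 7, with a bar at the median. The widest gaps between the bars are those of endothelial genes (-0.26 and -2.88), extracellular matrix genes (-0.19 and -2.34) and proximal tubule genes (-0.93 and -2.33). Cells were summed, so fewer cells of a type and less RNA per cell cannot be told apart here. Within the endothelial gate the matrix medians were -0.14 and -0.14.

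The cells of the treated pool were divided among classes much as those of the control were. Each cell was placed in the marker gate whose 8 markers it held most of, with at least 2 detected. To give the treated pool the class shares of the control, 11.2% of its cells (SD 1.42, range over sublibraries 10.6% to 14.5%) would have to change class. For the vehicle pool the figure was 36.4% (SD 2.02, range 33.9% to 39.4%), with no overlap between the ranges.

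Macrophages were the largest class in all 3 pools, at 37.3% of the control (95% Clopper-Pearson interval 36.4% to 38.2%), 35.6% of the treated pool (34.5% to 36.7%) and 34.7% of the vehicle pool (33.5% to 35.9%). Endothelial cells made up 20.8% of the control (20.1% to 21.6%) and 19.0% of the treated pool (18.2% to 19.9%), but 3.67% of the vehicle pool (3.21% to 4.17%). Sublibraries of treated and control pools overlapped for both classes. Intervals cover the counting of cells and not the difference between mice.

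Neutrophils, which the uninjured kidney nearly lacks, numbered 84 in the control (0.750%), 140 in the treated pool (1.84%) and 1626 in the vehicle pool (26.6%). Over sublibraries the neutrophil share ran from 0.287% to 1.17% in the control (median 0.769%), from 1.25% to 2.38% in the treated pool (median 1.86%) and from 24.8% to 28.8% in the vehicle pool (median 26.3%). The treated share was 2.45 times that of the control and the vehicle share 35.3 times. Neutrophils had medians of 1558.5, 1610.5 and 1286 counts per cell in control, treated and vehicle pools. Of the 3 pools only the treated one held no barcode under 1094 counts, and these shares were not taken at an equal lowest count. Classical monocytes stood at 2.15%, 4.21% and 8.58%, with log2 ratios of 0.97 (SD 0.37) and 1.99, and nonclassical monocytes at 1.19%, 1.29% and 0.573%.

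The proximal tubule was the class furthest below the control in the treated pool. Its share ran from 8.25% to 11.2% in the control (median 9.25%), from 2.83% to 5.33% with entospletinib (median 4.02%) and from 1.47% to 3.01% with vehicle (median 2.11%). The treated range lay wholly below the control and overlapped that of vehicle, and the log2 ratio to the control was -1.20 (SD 0.36). The later tubule went the other way. Loop of Henle cells made up 1.70% of the control, 3.12% of the treated pool and 0.622% of the vehicle pool, and distal tubule or collecting duct cells 1.32%, 2.60% and 0.409%, with log2 ratios to the control of 0.88 (SD 0.40) and 0.98 (SD 0.34) with entospletinib. All 3 tubule gates together held 12.5%, 9.82% and 3.22% of cells. Because the sort was gated on scatter, these shares describe the sorted suspension, and a difference in sorting between pools was not tested.

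Lymphocytes and dendritic cells also differed. B cells were at 4.16% in the control, 7.10% in the treated pool and 2.82% in the vehicle pool, and the treated value was higher in 8 of 8 sublibraries (log2 ratio 0.77, SD 0.20). T cells were at 6.38%, 4.23% and 2.96%, lower in 8 of 8 (log2 ratio -0.59, SD 0.29). Without the cells rich in ribosomal protein counts the T cell ratio was -1.06. Type 2 conventional dendritic cells (cDC2) stood at 4.48%, 6.06% and 4.14% (log2 ratio 0.44, SD 0.12) and type 1 (cDC1) at 3.52%, 3.94% and 2.77%. For cDC1 the direction turned without the cells rich in ribosomal protein counts. Plasmacytoid dendritic cells (1.58% and 1.56%) and natural killer cells (0.910% and 1.01%) had overlapping intervals in control and treated pools.

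**Figure D3:**
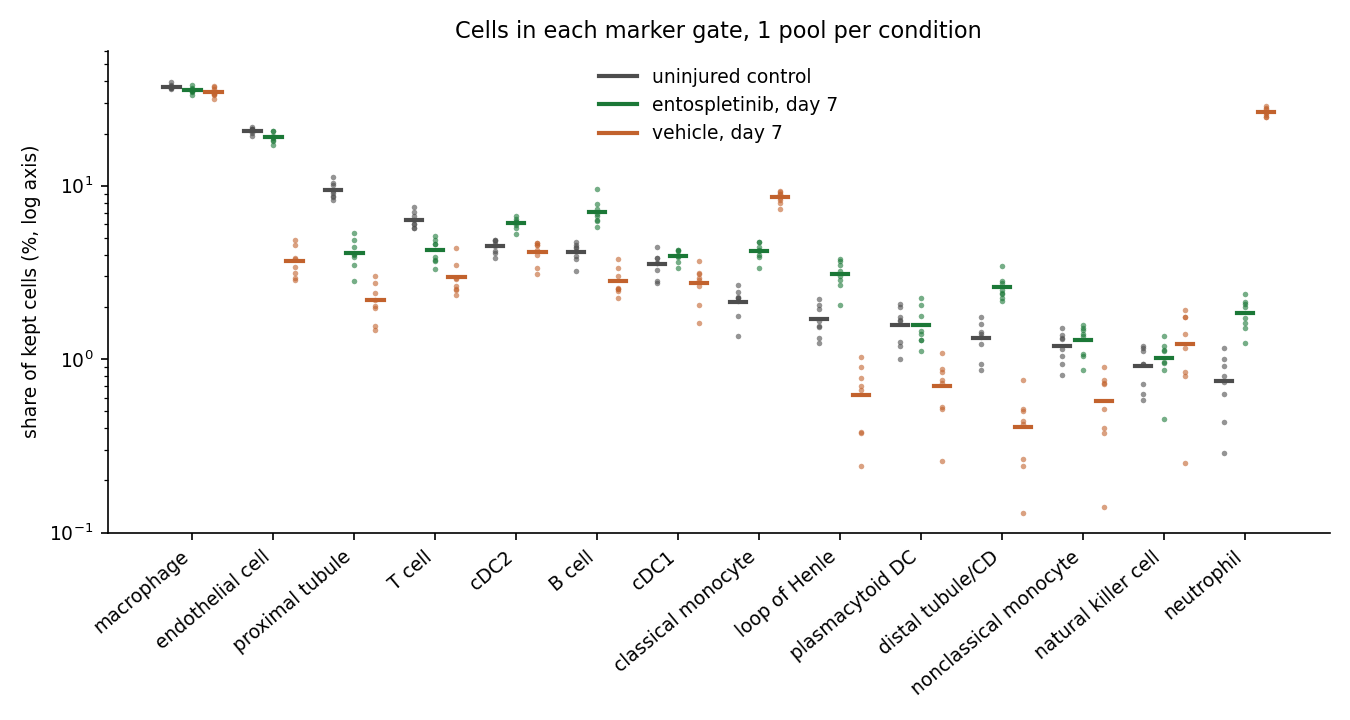
Share of kept cells (%, log axis) in each marker gate, with points for the 8 sublibraries and a line at the pooled share, for control, entospletinib day 7 and vehicle day 7. Neutrophils (0.750%, 1.84% and 26.6%) and endothelial cells (20.8%, 19.0% and 3.67%) separate vehicle from the other pools, and proximal tubule cells (9.44%, 4.10% and 2.19%) separate treated from control.

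To see how much of the all-cell difference went with the class mix, the profile of each of 16 classes was weighted by the share of counts that class had in the control. Of 3607 genes, 7 (0.194%) were then past 2-fold for entospletinib, 5 higher and 2 lower, and 85 (2.36%) for vehicle. The vehicle number depended on the gate rule and was lower when the class with the most marker counts took the cell. Without the weights the corresponding shares over all cells were 1.02% and 15.2%, over a slightly different set of genes.

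Within classes fewer genes were past 2-fold with entospletinib than with vehicle in 10 of 11 gates, and the proximal tubule gate was the exception. Classes with at least 100 cells in both the treated and the control pool were compared over genes averaging at least 100 CPM, the gate markers left out. No minimum was set for the vehicle pool. It had 25 distal tubule or collecting duct, 38 loop of Henle and 43 plasmacytoid dendritic cells. The macrophage gate had 14 of 1771 genes past 2-fold with entospletinib (0.791%) and 118 (6.66%) with vehicle. Of these, 9 (0.508%) and 38 (2.15%) were higher and 5 (0.282%) and 80 (4.52%) lower. With TMM scaling the treated genes past 2-fold were 6 higher and 6 lower. The treated count was 6 with cells thinned to 1000 counts, 8 when the class with the most marker counts took the cell and 71 when genes down to 20 CPM were admitted. Classical monocytes had 11 of 1696 (0.649%) and 286 (16.9%), cDC2 41 of 1747 (2.35%) and 125 (7.16%), and endothelial cells 19 of 1825 (1.04%) and 41 (2.25%). T cells had 8 (0.463%) and 39 (2.26%), and B cells 7 (0.4%) and 15 (0.857%). The cDC1 gate had 5 (0.297%) and 21 (1.25%), plasmacytoid dendritic cells 13 (0.751%) and 76 (4.39%), the loop of Henle 13 (0.889%) and 91 (6.22%), and the distal tubule or collecting duct 22 (1.46%) and 91 (6.05%). With the 3 pools drawn down to equal depth, the counts were 41 and 109 in plasmacytoid dendritic cells, 47 and 121 in the loop of Henle, 94 and 154 in the distal tubule or collecting duct, 16 and 45 in T cells, 12 and 26 in B cells and 5 and 33 in cDC1. Equal depth leaves the numbers of cells unequal, and their part in these counts was not tested. Nothing is read from the order in gates with few vehicle cells. In the proximal tubule gate 29 of 1460 genes (1.99%) were past 2-fold with entospletinib and 19 (1.3%) with vehicle. That order turned when each cell was thinned to 1000 counts (56 and 67) or when genes down to 20 CPM were admitted (197 and 304), and at least 3 detected markers per cell gave 23 and 23.

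**Figure D4:**
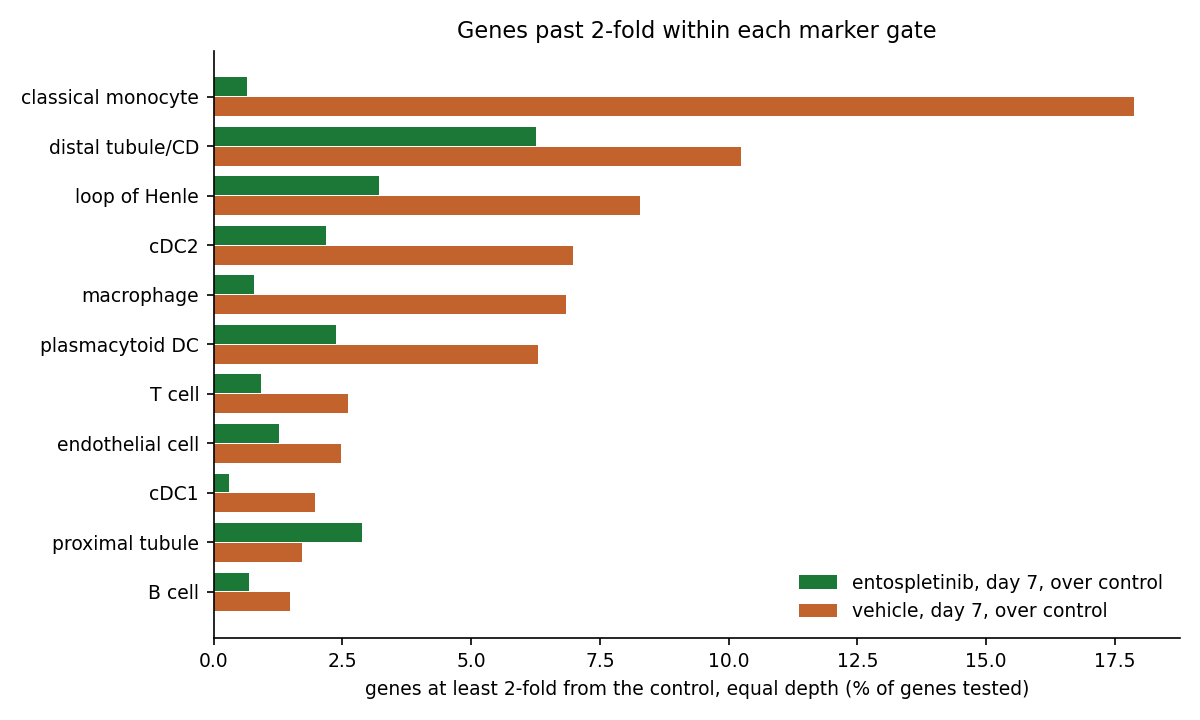
Genes at least 2-fold from the control (% of genes tested) in each of 11 marker gates for entospletinib day 7 and vehicle day 7, with the 3 pools of a gate drawn down to equal depth. Entospletinib is the lower bar in every gate but the proximal tubule (2.88% and 1.71%). Numbers of cells stay unequal, with 25 distal tubule or collecting duct, 38 loop of Henle and 43 plasmacytoid dendritic cells in the vehicle pool.

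Most of the genes past 2-fold in a gate were past it in that gate alone. Over the 11 gates 138 genes were past 2-fold at least once with entospletinib, 119 of them in a single gate, in 182 pairs of gene and gate. Only 4 were past it in at least 5 gates, and 2 of these were small RNAs. *Rn7sk* was past 2-fold higher in 11 of 11 gates, by log2 ratios of 1.63 to 2.13, with 0.41 to 1.12 in the vehicle pool. *Scarna2* (chr3:108554338-108554751) was past 2-fold lower in 10 of 11. Over all 11 gates its log2 ratio ran from -2.09 to -0.98, with 0.00 to 0.75 in the vehicle pool. *Cmss1* and the predicted gene *Gm15564* were each past 2-fold lower in 5 gates. Over all 11 gates the log2 ratio of *Cmss1* ran from -1.22 to -0.75 with entospletinib and from 0.57 to 1.32 with vehicle. *Cmss1* also carried a large part of each pool, at 16037 CPM in the control, 8261 with entospletinib and 30518 with vehicle over all cells. All 4 genes had the same direction in all 11 gates, and for them pool, wells and treatment cannot be told apart.

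In the macrophage gate, 4182 control and 2708 treated cells were compared. The gate joins resident and recruited macrophages, and a different mix of them was not tested. The named gene furthest above the control there was *Gda*. *Gda* (chr19:21391307-21473445) ran from 15.2 to 33.4 CPM in the control (median 28.0), from 76.2 to 149.2 with entospletinib (median 110.5) and from 148.7 to 248.0 with vehicle (median 213.9). Treated and control sublibraries did not overlap, and the log2 ratios were 2.05 (SD 0.34) and 2.94. *Arhgap24*, which encodes a GTPase-activating protein for Rac, stood at 32.5, 122 and 206 CPM (log2 ratio 1.91, SD 0.16). *Itgam*, the CD11b integrin chain of recruited myeloid cells, stood at 158, 355 and 419 CPM (log2 ratio 1.17, SD 0.17).

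Of 9 measured genes of the list of lipid-handling injury macrophage genes 0 were past 2-fold with entospletinib (median 0.21, range -0.58 to 0.98), where 0.791% of all genes were. Outside that list, the scavenger receptor gene *Msr1* was at 58.6, 123 and 120 CPM, the cholesterol exporter gene *Abca1* at 152, 319 and 591 CPM and lysozyme *Lyz2* at 461, 942 and 1156 CPM. Their log2 ratios to the control were 1.07, 1.07 and 1.03 with entospletinib. The lysosomal protease gene *Ctsd*, a member of the list, was at 43.9, 86.5 and 171 CPM (log2 ratio 0.98). *Ahnak* was at 178, 469 and 579 CPM. In each of these the treated sublibraries lay wholly above the control. *Thbs1*, thrombospondin, was at 31.3 CPM in the control and 63.1 with entospletinib, with overlapping sublibraries, and at 575 with vehicle. It passed the level limit through the vehicle pool alone, as *Ctsd* did, so nothing is read from the distance of either gene to vehicle.

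Of the 10 named genes below the control in treated macrophages 8 were lower still with vehicle, the others being *Scarna2* and *Jdp2*. *Fkbp5* (chr17:28399094-28517527), a glucocorticoid-induced cochaperone gene, ran from 360.6 to 401.4 CPM in the control (median 382.8), from 163.9 to 204.8 with entospletinib (median 172.0) and from 50.4 to 68.9 with vehicle (median 59.1). The 3 ranges were separate, with log2 ratios of -1.09 (SD 0.11) and -2.69. *Ccnd3*, the D-type cyclin gene most used by blood cells, was at 820.3, 446 and 177 CPM (log2 ratio -0.88, SD 0.13). The GTPase-activating protein gene *Dlc1* (617, 287 and 146 CPM), *Adgrl3* (543, 217 and 139.7 CPM), *Ptprm* (248, 136 and 78.2 CPM), *Tns1* (175, 91.6 and 67.7 CPM) and *Adam22* (182, 93.6 and 74.8 CPM) had the same order. *Jdp2*, a repressor of AP-1, was at 171, 91.8 and 186 CPM, so that it was lower with entospletinib alone. *Gpx3*, a tubule product, was at 182, 66.9 and 54.9 CPM in this gate. The summed 8 proximal tubule markers moved with it in macrophages, at 137 CPM in the control, 52.6 with entospletinib and 35.9 with vehicle, and their part in the *Gpx3* values was not tested. Endothelial markers summed to 150, 101 and 57.8 CPM in this gate, and neutrophil markers went the other way, at 170, 187 and 280 CPM. The part of either in the other genes named here was not tested.

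**Figure D5:**
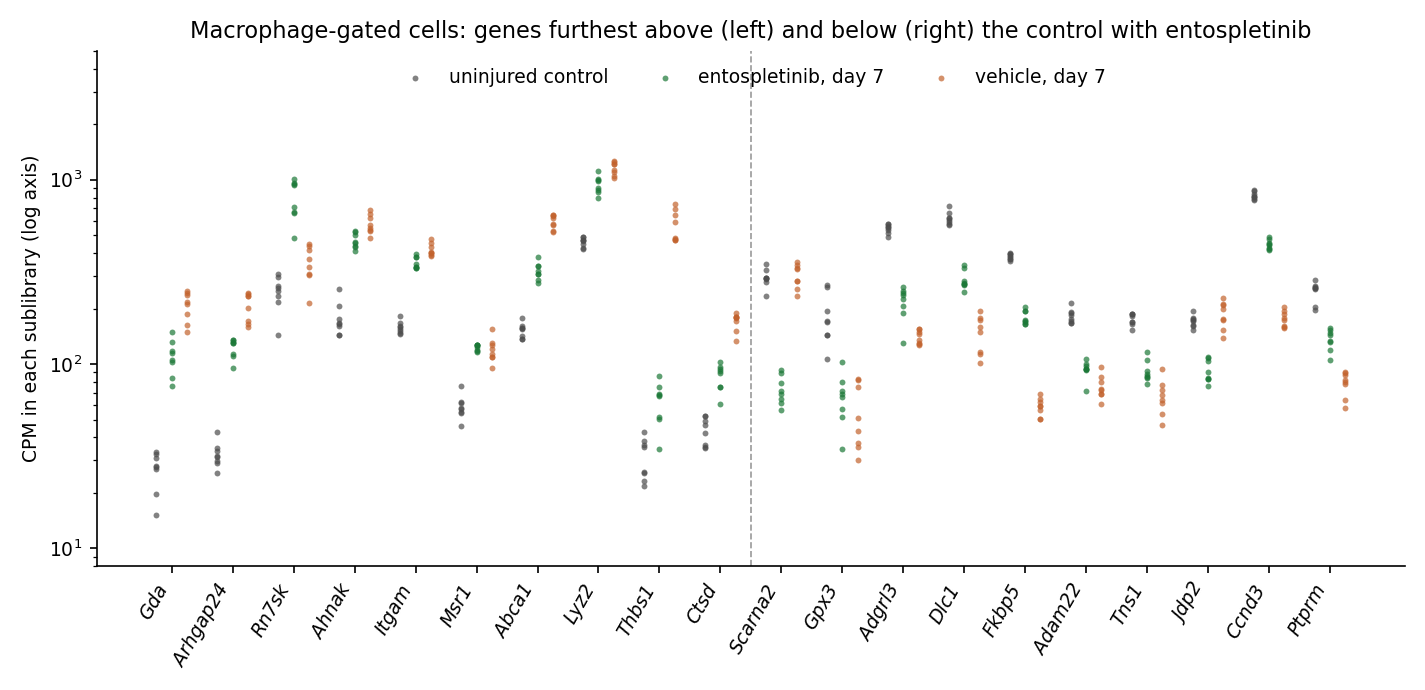
CPM in each of the 8 sublibraries (log axis) for the macrophage gate's named genes, with 10 above the control at the left and 10 below at the right, for control, entospletinib day 7 and vehicle day 7. The treated points stand clear of the control for all genes but Thbs1, and for Fkbp5 and Ccnd3 they lie between control (382 and 820.3 CPM) and vehicle (59.0 and 177 CPM).

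Of 16 resident macrophage genes 11 were measured in the macrophage gate, and 0 were past 2-fold with entospletinib (0.791% of all genes in the gate) and 9 lower with vehicle (4.52% of all genes). At the share of all genes none of 11 would be past it with entospletinib, so nothing is read from that count. The list medians were -0.36 and -1.24, beside 0.01 and -0.34 over all 1771 genes. *Tgfbr1*, the TGF-beta receptor that maintains resident cells, ran from 2723 to 3046 CPM in the control (median 2915), from 1793 to 2074 with entospletinib (median 1974) and from 689.0 to 931.2 with vehicle (median 779.0). The treated level was thus apart from both others, with log2 ratios of -0.57 (SD 0.06) and -1.90. *Arhgap22* (1177, 839.8 and 388 CPM), *Cadm1* (1583, 1161 and 599 CPM) and *Itga9* had log2 ratios of -0.49, -0.45 and -0.47 with entospletinib. *Cx3cr1*, the fractalkine receptor gene, went the other way, from 618.5 to 716.9 CPM in the control (median 681.9) and from 979.4 to 1097 with entospletinib (median 1025), with 540.7 to 678.5 with vehicle. Its log2 ratio was 0.62 (SD 0.06) with entospletinib and -0.21 with vehicle. *Hpgd*, a prostaglandin-degrading enzyme gene, was at 294, 379 and 135 CPM.

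*Syk*, the target of the inhibitor, was at 476, 456 and 473 CPM in macrophages, and the sublibraries of all 3 pools overlapped. Of the 14 measured genes of SYK-coupled receptors and signaling, 0 were past 2-fold with entospletinib or with vehicle, where 0.791% and 6.66% of all genes were, and nothing is read from counts so small. The mannose receptor gene *Mrc1* was highest in the list, at 523, 870.5 and 868 CPM (log2 ratios 0.74, SD 0.10, and 0.73), and *Clec7a*, the Dectin-1 gene, stood at 172, 231 and 279.8 CPM. The median of the list was 0.03 with entospletinib and turned to -0.034 with TMM scaling. MHC class II genes had a median of 0.05 with entospletinib (-0.017 with TMM scaling) and -0.57 with vehicle, with *Cd74* at 5245, 5845 and 3175 CPM. *Il1b* was at 705, 711 and 999 CPM, and *Ccl4*, a chemokine gene, was highest with entospletinib at 129, 224 and 111 CPM (log2 ratio 0.80, SD 0.31). *Apoe*, a lipid carrier gene, was at 1122, 1847 and 1738 CPM (log2 ratio 0.72, SD 0.14).

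Dendritic cells of the cDC2 gate, 502 in the control and 461 in the treated pool, held the largest ratio of any named gene. *Dcstamp*, which encodes a membrane protein of fusing myeloid cells, ran from 0 to 35.9 CPM in the control (median 11.3), from 75.1 to 234.2 with entospletinib (median 184.8) and from 90.5 to 493.2 with vehicle (median 184.2). Treated and control did not overlap, and treated and vehicle did, with log2 ratios of 3.35 (SD 1.20) and 3.83. *Gda* (45.1, 317.5 and 450.3 CPM), *Arhgap24* (59.8, 399.6 and 215 CPM) and the macrophage elastase gene *Mmp12* (72.0, 292 and 266 CPM) were higher too, with log2 ratios of 2.81, 2.74 and 2.01. *Gda* and *Arhgap24* were thus above the control in macrophages and in cDC2, and Arhgap24 was past 2-fold in 2 of the 8 gates where it was measured. The proliferation gene *Mki67* was at 287, 103 and 234 CPM in cDC2 (log2 ratio -1.48, SD 1.30), and *Fkbp5* at 179, 71.5 and 51.9 CPM (log2 ratio -1.32, SD 0.55).

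Among monocytes and lymphocytes few genes besides the small RNAs stood out. In classical monocytes *Uck2*, a uridine-cytidine kinase gene, was at 45.6, 150.3 and 289.7 CPM, and *Spp1*, which encodes osteopontin, at 121, 317 and 649 CPM, both with overlapping sublibraries. *Sirpb1a* was at 198, 104 and 47.0 CPM, and its reads may be shared with near-identical family members. In T cells *Itga1* (250.0, 101 and 93.4 CPM) and the chemokine receptor gene *Cxcr6* (159.5, 75.1 and 76.6 CPM), both genes of tissue-resident T cells, were as low with entospletinib as with vehicle, with log2 ratios of -1.31 (SD 0.87) and -1.08 (SD 0.33). Sublibraries of treated and control overlapped for *Itga1* but not for *Cxcr6*. In B cells *Trrap*, a subunit of histone acetyltransferase complexes, was at 193, 83.4 and 112 CPM (log2 ratio -1.21, SD 0.29).

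Endothelial cells, 2332 in the control, 1447 in the treated pool and 224 in the vehicle pool, had a few large ratios. *Sema5a* (chr15:32244810-32696341), a semaphorin gene, ran from 14.4 to 56.5 CPM in the control (median 31.5), from 177.6 to 247.5 with entospletinib (median 221.1) and from 0 to 157.2 with vehicle (median 74.8). Treated sublibraries lay above both others, with a log2 ratio to the control of 2.74 (SD 0.73). Lipoprotein lipase, *Lpl*, ran from 61.4 to 110.6 CPM in the control (median 88.7) and from 198.3 to 314.0 with entospletinib (median 258.8), and stood at 82.6 CPM with vehicle. *Ehd3*, a gene of glomerular endothelium, was at 280.0, 562 and 287 CPM (log2 ratio 1.00, SD 0.25) and *Igfbp5* at 2972, 4299 and 2399 CPM (log2 ratio 0.53, SD 0.17). These 4 genes were higher with entospletinib than in either other pool, which the 224 vehicle cells measure least well.

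On the lower side, the transcription factor gene *Zbtb16*, which glucocorticoids induce, ran from 365.0 to 461.3 CPM in the endothelial control (median 415.9), from 131.7 to 191.7 with entospletinib (median 170.3) and from 21.5 to 58.7 with vehicle (median 31.1). The ranges were separate and the log2 ratios were -1.31 (SD 0.18) and -3.65. The fatty acid transporter gene *Cd36* was at 289, 137 and 112 CPM, the ganglioside synthase gene *St3gal5* at 184, 84.4 and 78.6 CPM, the fenestral diaphragm gene *Plvap* at 892, 634 and 584 CPM and *Igfbp3* at 508, 279 and 359 CPM. Above the control, elastin, *Eln*, ran from 21.4 to 45.3 CPM in the control (median 31.0), from 48.9 to 163 with entospletinib (median 73.8) and from 19.6 to 908.7 with vehicle (median 75.7). Its highest vehicle sublibrary carries the vehicle level of 194 CPM through which it passed the level limit. Neutrophil markers summed to 73.0, 145 and 310 CPM in this gate, and their part in the endothelial values was not tested.

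The 312 treated and 1058 control cells of the proximal tubule gate were compared for the transport and metabolic genes of that segment. Of 23 genes of that list 20 were measured, with 1 past 2-fold higher and 0 lower with entospletinib. The list median was 0.00, against 0.20 over all 1460 genes of the gate, 29 (1.99%) of which were past 2-fold. The glucose transporter gene *Slc5a2* was at 325.5, 482 and 375 CPM and the urate transporter gene *Slc22a12* at 372.5, 263 and 230.4 CPM, both with overlapping sublibraries of treated and control pools. *Gpx3* was at 5810, 4372 and 4189 CPM here, a log2 ratio of -0.41 (SD 0.17) against -1.48 over all cells, and *Kap* at 1053, 589.9 and 489 CPM (-0.84, against -1.71). Both genes were below the control in the gate and over all cells. The share of proximal tubule cells was also lower, and its part in the all-cell levels was not tested.

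Of 3 measured matrix genes in the treated proximal tubule cells 1, *Col4a1*, was past 2-fold, as were 2 of 3 immediate early and heat shock genes, all higher, where 1.99% of all genes in the gate were past it. *Col4a1* ran from 61.0 to 131.3 CPM in the control (median 86.4) and from 145.4 to 627.5 with entospletinib (median 184.1), and was at 89.7 CPM with vehicle. *Fosb* (52.3, 155 and 126 CPM) and *Jun* (136, 329 and 208 CPM), immediate early genes, had overlapping sublibraries. *Sema3c* (63.1, 198 and 55.1 CPM) and *Sema5a* (77.3, 234 and 102 CPM) were higher with log2 ratios of 1.65 (SD 0.52) and 1.59 (SD 0.57). *Lpl* was lower, at 482, 234 and 222 CPM (log2 ratio -1.04, SD 0.52), as were the kinase-like scaffold gene *Peak1* (261, 93.8 and 147 CPM) and the leukocyte phosphatase gene *Ptprc* (204, 86.9 and 97.9 CPM). Macrophage markers summed to 266, 216 and 273 CPM and endothelial markers to 163, 52.0 and 149 CPM in this gate, and their part in these values was not tested. TMM scaling turned the split of genes past 2-fold from 20 higher and 9 lower to 11 and 21, so the direction of small differences in this gate depends on scaling.

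In the loop of Henle gate (190 control and 237 treated cells) *Clu*, which encodes clusterin, ran from 23.6 to 129.2 CPM in the control (median 61.3), from 221.1 to 665.1 with entospletinib (median 472.9) and from 0 to 1046 with vehicle (median 267.0). No treated sublibrary overlapped the control (log2 ratio 2.70, SD 0.51). *Spp1* was at 668, 2501 and 5671 CPM (log2 ratio 1.90, SD 0.81) and *Dcdc2a*, a ciliary gene, at 38.6, 199 and 526 CPM. The vehicle values rest on 38 cells. In the distal tubule or collecting duct gate (148 and 198 cells) *Clu* was at 558, 621 and 1537 CPM (log2 ratio 0.15, SD 0.80) and *Spp1* at 725, 1042 and 597 CPM (log2 ratio 0.52, SD 1.05), both with overlapping sublibraries. The intercalated cell genes *Atp6v0d2* (102, 329 and 105 CPM) and *Slc4a9* (228, 554.5 and 246 CPM) of the same gate were past 2-fold higher with entospletinib, with SDs of 1.89 and 1.74 on log2 ratios of 1.68 and 1.28. That gate joins several cell types, and a different mix of them was not tested.

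Among glucocorticoid-induced genes *Fkbp5* was below the control in some gates and above it in the proximal tubule, a difference between gates that was itself not tested. Corticosterone acts through a receptor that binds a palindrome in DNA, and *Fkbp5*, *Zbtb16* and *Sgk1* are among its targets. *Fkbp5* was lower with entospletinib in macrophages, in cDC2 and in endothelial cells (292.5, 172 and 85.3 CPM, log2 ratio -0.77), but in the proximal tubule it ran from 113.7 to 149.8 CPM in the control (median 129.3) and from 194.3 to 277.6 with entospletinib (median 226.8). Its log2 ratio there was 0.81 (SD 0.22), with -0.76 for vehicle, and it was higher in 8 of 8 sublibraries. The other 2 measured members of the list there, *Klf9* (392, 316 and 235 CPM) and *Errfi1* (563, 469.7 and 296 CPM), were below the control, and the list median was -0.26. *Sgk1*, a kinase gene of salt handling, was higher in endothelial cells with entospletinib, at 174, 284 and 148 CPM (log2 ratio 0.71, SD 0.19), while *Zbtb16* was lower there. Over all cells the list had 8 measured members, 0 past 2-fold with entospletinib (1.02% of all genes, so that none of 8 is near the background) and 3 lower with vehicle (10.3% of all genes), and medians of -0.35 and -0.81.

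The palindrome, written as GNACA and TGTNC with 3 bases between them and searched on both strands in the 250 bases before each start, was in the promoters of 119 of 27025 genes (0.440%). Of the 13 listed glucocorticoid response genes 12 had a promoter in the table and 2 held it, *Sgk1*, at 1 of its listed starts, and the metallothionein gene *Mt1*. Both are shown with the motif in capitals (RefSeq, GRCm38.p6), because they are the members whose start region carries the receptor's letters.
Sgk1, chr10:21993682-21993734, plus strand: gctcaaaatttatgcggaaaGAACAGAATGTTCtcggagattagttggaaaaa
Mt1, chr8:94178975-94179027, plus strand: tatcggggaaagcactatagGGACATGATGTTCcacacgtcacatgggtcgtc

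The window says nothing of more distant sites, and *Fkbp5* and *Zbtb16* without a match are not thereby set apart from *Sgk1*.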

How the data were processed

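Single-cell libraries were made by the authors with the Parse Evercode kit and aligned to mm10. The aligner settings and the annotation release were not given in the sources used here. The deposited matrix holds counts, whole numbers of transcripts per gene and cell with no normalization by the authors. Every deposited sample mixes cells of all conditions. Each cell's condition therefore comes from the deposited cell table, and sublibraries were not matched to samples.

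Kept cells were gated on 8 markers per class (17 classes), the class with the most detected markers taking the cell when at least 2 were seen. No doublet caller was run, and cells past the gate of a second class were left out in an alternative. The share of cells at the limit of 2 markers ran from 0.415% (treated endothelial cells) to 27.3% (treated distal tubule or collecting duct cells), and was 6.67% of control and 5.35% of treated macrophages and 15.1% and 23.9% of cDC2. Counts were summed per gate and condition, 0.5 counts were added, and log2 ratios of CPM were taken with the SD over 8 sublibraries. Genes averaged at least 50 CPM over all cells or 100 CPM in a gate, over the treated, vehicle and control pools. Past 2-fold means a log2 ratio of at least 1 either way. Shares carry exact Clopper-Pearson intervals at 95%, which cover counting error only. Promoters came from RefSeq (GRCm38.p6) and gene positions from a GRCm38 annotation.

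The genes named were the 10 highest and 10 lowest ratios over all cells and in macrophages, and 3 and 3 in other gates, with the same direction in 8 of 8 sublibraries. Mitochondrial, ribosomal and predicted genes were passed over. Members of 14 gene lists were named besides. A few genes that the rule would name are not reported here. The members, the lists and the rule were chosen with earlier results of these data known. *Gm15564* was named outside the rule after its values were seen. On simulated counts the ratio step recovered 100% of changed genes and put 0% of unchanged genes past 2-fold. The run covered 3585 genes for all cells and 1788 for macrophages. The other gates were not included, and how far the run carries over to the measured counts was not tested.

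Work was done in Python 3.11.15 (numpy 2.4.6, scipy 1.17.1, pandas 2.3.3, matplotlib 3.10.9), with edgeR 4.0.16 for TMM factors only. Alternatives were other cell limits, thinning to 1000 counts per cell, other gate rules, denominators, scalings, level limits and added counts, each sublibrary left out in turn and, chosen after seeing the data, an equal lowest count per cell.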

Additional observations from a re-analysis of the deposited data

Results flagged for a closer look

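In 3 of 53 sets of 8 sublibrary ratios, 1 sublibrary lay far from the other 7, where chance flags about 1 in 20. The log2 ratio of *Pck1* over all cells was -2.57 in sublibrary s5, with -1.44 pooled. *Scarna2* in macrophages was at -1.64 in s1, with -2.01 pooled, and *Adgrl3* in macrophages at -2.07 in s8, with -1.32 pooled. All 3 pooled values are below the control without regard to that sublibrary, since every sublibrary had the same direction.

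In 8 of 91 comparisons of a gene between a pair of gates, the gene was on 1 side of the control in all 8 sublibraries of the first gate and on the other side in all 8 of the second. The differences were not tested. *Fkbp5* was at -1.09 in macrophages and -0.77 in endothelial cells and at 0.81 in the proximal tubule. *Tanc2*, a resident macrophage gene, was at -0.24 in macrophages, -0.35 in endothelial cells and 0.51 in the proximal tubule. *Dlc1* was at -1.10 in macrophages and 0.27 in endothelial cells. *Lpl* was at 1.54 in endothelial cells and -1.04 in the proximal tubule. The collagen IV genes, which lie next to each other and encode chains of the same basement membrane trimer, were lower in endothelial cells (*Col4a1* -0.40, *Col4a2* -0.47) and higher in the proximal tubule (*Col4a1* 1.36, *Col4a2* 0.81).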

How the results depend on the processing

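No paired analysis was possible because each condition was 1 pool and the deposited samples mix all conditions. Entospletinib had fewer genes past 2-fold than vehicle over all cells, in macrophages and in endothelial cells under each alternative run. A mean of at least 20 CPM gave 89 and 1082 genes over all cells (entospletinib, then vehicle), 71 and 394 in macrophages and 106 and 290 in endothelial cells, and a mean of at least 200 CPM gave 8 and 101, 10 and 58, and 8 and 14. With no limit beyond 1 count the numbers were 6841 and 10478, 6005 and 9933, and 5298 and 11015, mostly of genes with few counts. In macrophages entospletinib left 6 genes when cells were thinned to 1000 counts and 8 when the class with the most marker counts took the cell, a rule that also gave 54 genes for vehicle at control class shares. The macrophage share ratio was -0.020 without cells rich in ribosomal protein counts and -0.16 among leukocytes. The cDC1 ratio turned to -0.13 without the former cells, and the vehicle macrophage ratio to 0.062 when cells needed over 500 detected genes, and to 0.11 with an equal lowest count per cell. TMM scaling turned 3 macrophage list medians, SYK-coupled genes to -0.034, cytokines to -0.053 and MHC class II to -0.017. The causes were not tested. An equal lowest count gave 36 and 521 genes over all cells and 14 and 119 in macrophages. Leaving out 1 sublibrary at a time gave 33 to 38 and 535 to 558 genes over all cells, 13 to 14 and 114 to 124 in macrophages, 17 to 20 and 35 to 48 in endothelial cells and macrophage share ratios of -0.08 to -0.06. The vehicle pool had 25 cells in the distal tubule or collecting duct gate and 38 in the loop of Henle gate. It had 43 in the plasmacytoid dendritic cell gate and 134 in the proximal tubule gate, so its values are least precise in these gates.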

Other observations

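Of 16 immediate early and heat shock genes 15 were measured over all cells. With entospletinib 1 was past 2-fold higher, where 0.565% of all genes were (*Ier3*, at 14.1, 29.3 and 137.5 CPM in control, treated and vehicle pools, which passed the level limit through the vehicle pool), and the list median was 0.44. *Jun*, a subunit of AP-1, was at 212, 311 and 251 CPM, *Fosb* at 80.2, 146 and 222 CPM and *Egr1* at 63.4, 95.4 and 192 CPM. *Jun* was highest with entospletinib, and *Atf3* was alike in both injured pools at 352, 447 and 446 CPM. Of the heat shock genes *Hsph1* (357, 269 and 191 CPM) was below the control with no overlap, while treated and control sublibraries overlapped for *Dnajb1* (96.1, 81.7 and 52.5 CPM), *Hspa1a* (150.1, 148 and 115 CPM) and *Hspa1b* (189, 204 and 131 CPM). These genes also answer to tissue digestion, whose part was not tested.

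Of 13 interferon response genes 5 were measured over all cells, with none past 2-fold with entospletinib (1.02% of all genes, so that none of 5 is near the background) and 2 lower with vehicle (10.3% of all genes), and medians of -0.34 and -0.81. *Rsad2*, which encodes the antiviral protein viperin, was at 207, 184 and 47.3 CPM and *Ifi213* at 114, 83.7 and 51.4 CPM. Cell cycle genes had medians of 0.19 and -0.38 over 4 measured genes, with *Ccnd1* at 154, 174 and 76.6 CPM. *Mki67* was at 81.7, 95.6 and 96.9 CPM over all cells, lower than the control with entospletinib in cDC2 and at 101, 146 and 112 CPM in macrophages.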
